A study of Mus musculus with 6 samples.

Results

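The genes described here carry sodium, calcium and magnesium across the distal convoluted tubule and the connecting tubule of the mouse kidney, together with the kinases that set the sodium transport and a tubular protease. The set is 10 genes: Slc12a3, Trpm6, Trpv5, Calb1, Pvalb, S100g, Slc8a1, Wnk1, Wnk4 and Klk1. Every probe set whose platform annotation names 1 gene, and that gene a member, was taken, which gave 22 of the 45037 probe sets tested and 9 of the 10 genes. Trpv5, the calcium channel of the apical membrane, had no such probe set and is not analysed here. The arrays measured whole kidneys of male mice aged 10 weeks, 1 Affymetrix array per animal. In 3 mice, titled TG and called ICD here, the soluble intracellular domain of the endocytic receptor megalin was expressed. The design text describes these mice as heterozygous for the domain. The other 3 mice were wild type littermates. The labels name neither the promoter that drives the domain nor the strain, and the wild type group carries no allele or agent according to them. None of the 22 probe sets passed the test between the genotypes. The lowest difference belonged to Pvalb, which 2 of the 3 ICD arrays read far below the other arrays, and the highest to 1 of the 3 Wnk1 probe sets.

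In the distal convoluted tubule, sodium and chloride enter the cell through the thiazide-sensitive cotransporter, and the kinases WNK1 and WNK4 control it through the kinases SPAK and OSR1. The same segment takes up magnesium through the channel TRPM6. In the late part of this segment and in the connecting tubule, calcium enters through TRPV5, is carried through the cytosol by calbindins and leaves through the sodium/calcium exchanger and a calcium pump. Parathyroid hormone and active vitamin D act on this calcium route, and vitamin D is in turn handled by megalin in the proximal tubule, upstream of these cells.

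Slc12a3 marks the distal convoluted tubule, and Pvalb marks its early part. The 250 bases before the annotated start of each are shown here. They are from RefSeq, on GRCm38.p6, with matches to the searched motifs in capitals. Slc12a3 lies on the plus strand (chr8:94328958-94329207) and Pvalb, at the outer of its 2 annotated starts, on the minus strand (chr15:78206401-78206650).
Slc12a3: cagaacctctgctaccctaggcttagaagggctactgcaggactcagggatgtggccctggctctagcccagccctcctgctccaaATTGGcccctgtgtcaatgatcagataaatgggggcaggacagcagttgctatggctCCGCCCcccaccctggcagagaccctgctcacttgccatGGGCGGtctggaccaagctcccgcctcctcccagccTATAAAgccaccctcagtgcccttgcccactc
Pvalb: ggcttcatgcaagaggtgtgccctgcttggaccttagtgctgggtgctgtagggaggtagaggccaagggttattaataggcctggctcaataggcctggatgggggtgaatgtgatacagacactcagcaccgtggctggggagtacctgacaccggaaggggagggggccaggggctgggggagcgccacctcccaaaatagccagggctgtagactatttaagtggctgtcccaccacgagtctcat
Both strands were searched for TATAAA (the TATA box, in 12.4% of 32851 windows of this length), CCAAT (33.8%), GGGCGG (the GC box, 32.7%), AGGTCA (a nuclear receptor half-site, 14%) and GTTAAT (an HNF1 half-site, 6.43%). The Slc12a3 window holds TATAAA 32 to 27 bases before the start, GGGCGG once on each strand and CCAAT once on the opposite strand. The Pvalb window holds no exact match to any of them. Only exact matches were searched, so near variants of a motif, such as AT-rich stretches close to the Pvalb start, were not counted. Windows were found for 9 of the 10 members, Calb1 having none in the table used. TATAAA also stands before Trpv5, CCAAT before Klk1, GGGCGG before Wnk1 (4 matches) and Wnk4 (3 matches), and AGGTCA before Klk1 (3 matches) and S100g (2 matches). A match describes the sequence and is not a binding site. Any relation of these matches to the array values was not tested.

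All values are RMA log2 values, where a difference of 1 is a factor of 2. Of the 22 probe sets, 18 had a mean over the 6 arrays of at least 6.64, the median across the array; the other 4 are called dim. The value of 1 probe set cannot be set against that of another, so levels are compared only between arrays. Array medians lay between 6.62 and 6.66. The array labelled wild type 3 stood apart in proximal tubule genes: the mean deviation of 12 markers of that segment from their 6-array means was -0.83 on it and 0.057 to 0.26 on the others. At 1427133_s_at, a probe set for megalin's own transcript Lrp2, it read 12.13 where wild type 1 and 2 read 13.01 and 12.97 and the ICD arrays 12.25 to 12.37. The brightest Lrp2 probe set, 1452320_at, read 12.77 to 12.93 in ICD and 12.78 to 12.92 in wild type kidneys. The faintest, 1445901_at, read 7.21, 6.83 and 6.93 in ICD and 6.77, 7.23 and 6.62 in wild type kidneys. Lrp2 thus gives no firm check of the genotypes, and for several members the difference is repeated with that array left out. The markers of the distal segments were present: the mean log2 value of the 6 measured markers of the distal convoluted tubule outside the member set lay between 10.73 and 10.89 in ICD and between 10.85 and 10.94 in wild type kidneys, and that of 5 connecting tubule markers between 9.66 and 9.72 and between 9.67 and 9.71. In whole kidney RNA, fewer cells of a type and less RNA per cell cannot be told apart.

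Limma called 0 of the 22 member probe sets at an adjusted p under 0.05, as it called 0% of all probe sets. The members' limma adjusted p lay between 0.72 and 0.998. At an unadjusted p under 0.05, limma gave 2 member probe sets, 1 each of Wnk1 and Slc8a1 and both higher in ICD kidneys, against 5.86% of all probe sets in either direction, 3.61% with ICD higher and 2.26% with ICD lower. The genotypes did not overlap at 2 member probe sets, 1 of Wnk1 and the dim 1 of Slc12a3, both with ICD higher, against 10.5% of all probe sets in either direction, 5.44% with ICD higher and 5.05% with ICD lower. A count of 2 is too small to set the members apart from these shares. Over the brightest probe set of each gene, 5 member genes were higher and 4 lower in ICD kidneys, with a median difference of 0.026. Over all 18193 genes the median was -0.012 and 43.9% were higher. Without the array labelled wild type 3 the members' median was 0.016, and it was -0.050 without ICD 1 and -0.021 without wild type 1.

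**Figure D1:**
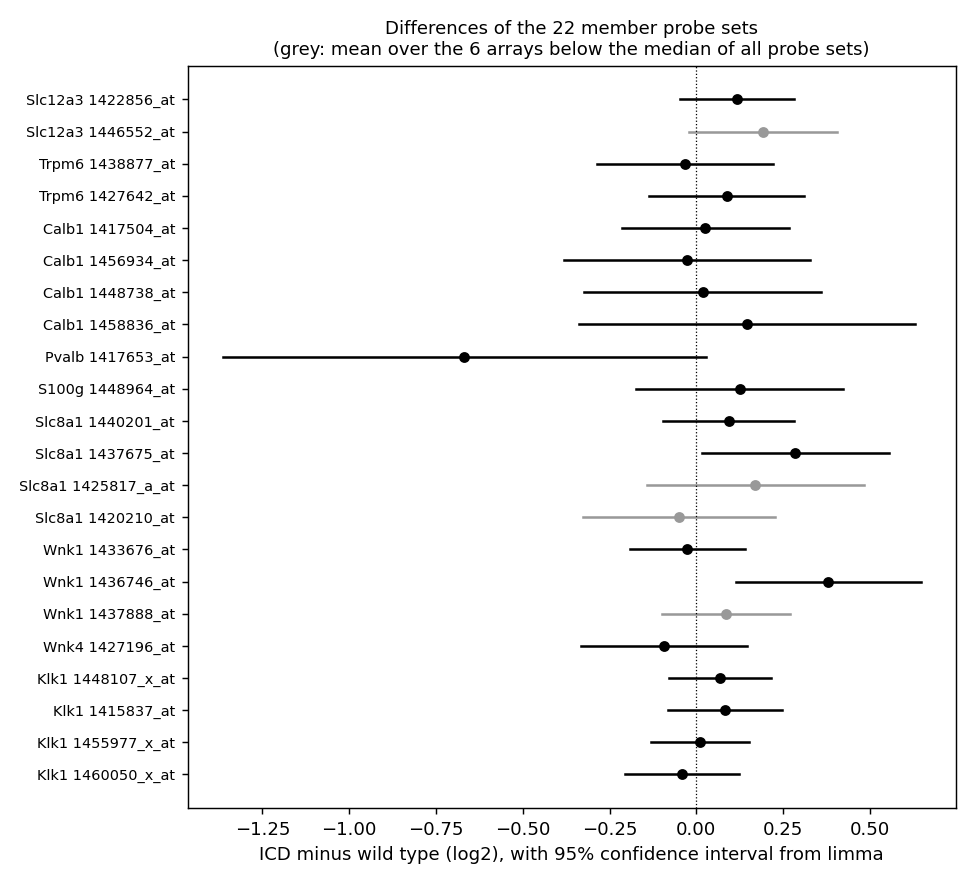
Each point is the ICD minus wild type difference (log2, horizontal axis) of 1 of the 22 member probe sets, and each bar its 95% confidence interval from limma, with dim probe sets in grey. The intervals of Wnk1 1436746_at (0.11 to 0.65) and Slc8a1 1437675_at (0.015 to 0.56) lie above 0, and that of Pvalb, the widest, runs from -1.36 to 0.029.

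Slc12a3 encodes the thiazide-sensitive sodium-chloride cotransporter, which defines the distal convoluted tubule. Its bright probe set 1422856_at read 12.47, 12.42 and 12.31 in the ICD kidneys and 12.23, 12.33 and 12.30 in the wild type kidneys. ICD 1 and ICD 2 lay above all wild type arrays, while ICD 3 lay below wild type 2. The group means were 12.40 ± 0.080 (SD, n = 3) and 12.28 ± 0.050. They differed by 0.12, with a 95% confidence interval of -0.047 to 0.28 and a limma adjusted p of 0.927. On the linear scale the interval covers a factor of 0.968 to 1.21. The dim probe set 1446552_at read 5.43, 5.34 and 5.58 in ICD and 5.34, 5.11 and 5.33 in wild type kidneys, and differed by 0.19 (interval -0.020 to 0.41, limma adjusted p = 0.875). The lowest ICD and the highest wild type value of this probe set both round to 5.34, so the groups were only just apart.

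Wnk1 encodes a chloride-sensing kinase at the head of the cascade; the gene also gives a shorter, kinase-deficient transcript that is made in the distal tubule. Its 3 probe sets did not move together. The brightest, 1433676_at, read 12.67, 12.61 and 12.59 in ICD and 12.55, 12.72 and 12.68 in wild type kidneys, with a difference of -0.026 (interval -0.19 to 0.14). At 1436746_at the values were 9.92, 9.64 and 9.73 in ICD and 9.57, 9.17 and 9.41 in wild type kidneys. Here all 3 ICD arrays lay above all 3 wild type arrays, although ICD 2 and wild type 1 differed by little. The difference was 0.38 ± 0.12 (SE), a factor of 1.30, with a limma adjusted p of 0.72. It lay between 0.27 and 0.48 when any 1 array was left out, at limma adjusted p values of 0.479 or more. The dim 1437888_at differed by 0.086 (interval -0.098 to 0.27). The annotation does not say which transcripts each probe set detects, so no difference is assigned to either form.

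Wnk4 encodes the second kinase of the pathway in this segment, and mutations in WNK4 and WNK1 cause familial hyperkalaemic hypertension. Its only probe set read 10.47, 10.59 and 10.45 in ICD and 10.41, 10.81 and 10.57 in wild type kidneys. Wild type 2 was the highest and wild type 1 the lowest of all 6 arrays, so that the ICD values lay within the wild type range. The difference was -0.093 (interval -0.33 to 0.14, limma adjusted p = 0.976), and 0.012 without wild type 2.

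Trpm6 encodes the apical magnesium channel, a channel fused to a kinase. The brighter probe set 1438877_at read 9.28, 8.93 and 9.0 in ICD and 8.95, 9.12 and 9.23 in wild type kidneys. ICD 1 was the highest and ICD 2 the lowest array, with the wild type arrays in between. The difference was -0.033 (interval -0.29 to 0.22, limma adjusted p = 0.994), and 0.034 when wild type 3 was left out. The other probe set, 1427642_at, read 8.11, 7.90 and 7.75 in ICD and 7.82, 7.79 and 7.89 in wild type kidneys, with ICD 1 again highest. Its difference was 0.087 (interval -0.14 to 0.31), and -0.0090 without ICD 1.

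**Figure D2:**
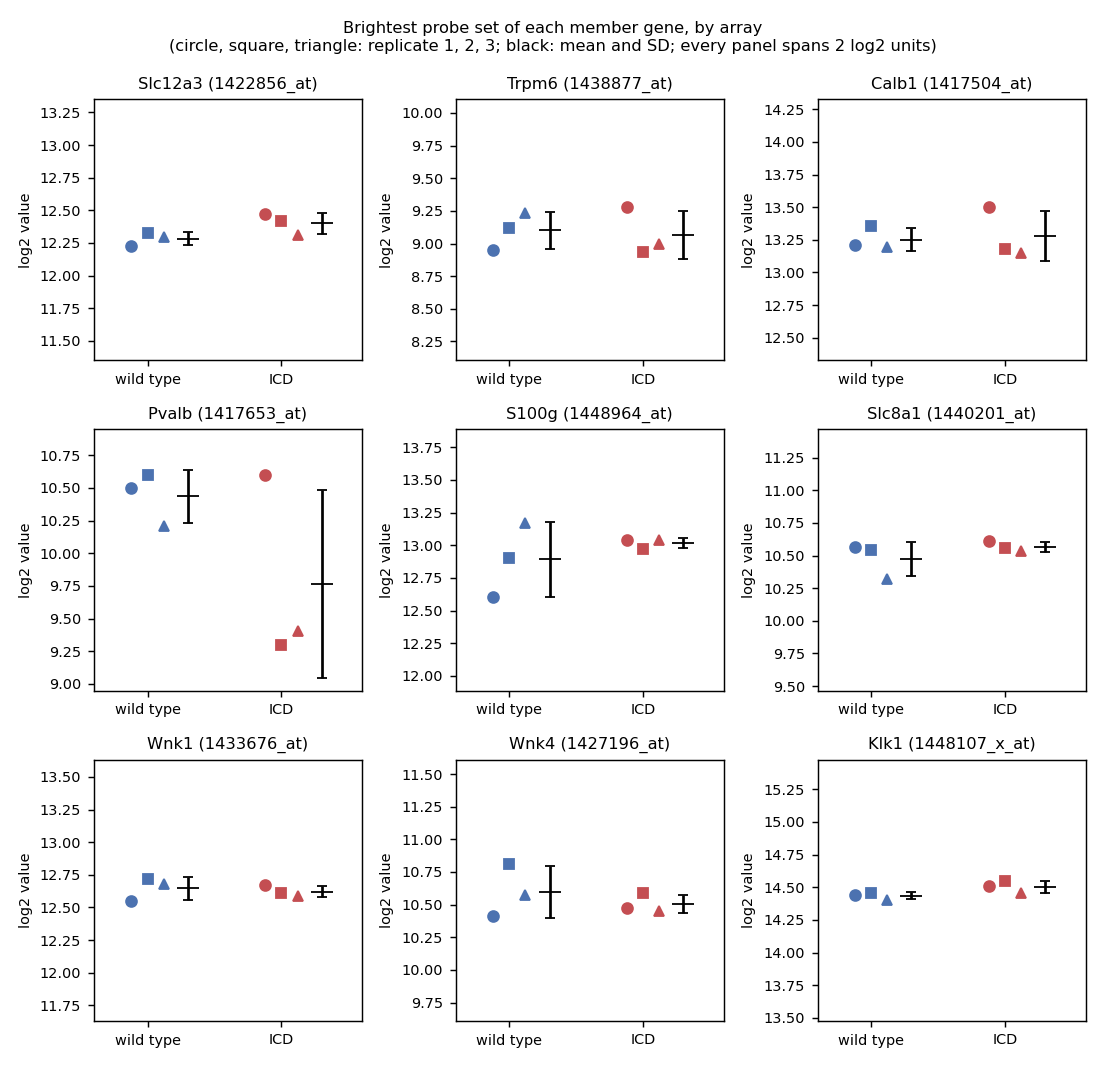
The log2 value (vertical axis, 2 units in every panel) of the brightest probe set of each of the 9 measured members is plotted for the 3 wild type (blue) and 3 ICD (red) arrays, with circle, square and triangle for replicates 1, 2 and 3 and the group mean ± SD in black. In the Pvalb panel ICD 2 and ICD 3 lie at 9.30 and 9.41 and the other 4 arrays at 10.21 to 10.60. In the Klk1 panel (1448107_x_at, with probes shared with other sequences) all 6 arrays lie between 14.41 and 14.55.

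Calb1, Pvalb and S100g encode EF-hand proteins that bind calcium in the cytosol. Calb1 gives calbindin-D28k, the calcium shuttle of the late distal convoluted and connecting tubule, and had 4 probe sets. The brightest, 1417504_at, read 13.50, 13.18 and 13.15 in ICD and 13.21, 13.36 and 13.19 in wild type kidneys, and differed by 0.026 (interval -0.21 to 0.27, limma adjusted p = 0.996). ICD 1 was the highest array, followed by wild type 2, and the other 4 arrays lay close together. The same order of the highest arrays held at each of the 4 probe sets: ICD 1 read 10.48, 10.44 and 8.49 at 1456934_at, 1448738_at and 1458836_at, and wild type 2 read 10.38, 10.17 and 8.22. Group differences at these were -0.027, 0.018 and 0.15, with intervals that reached from -0.38 to 0.63. Without ICD 1 the differences of the 4 probe sets lay between -0.20 and -0.059. Without the array labelled wild type 3, 1417504_at differed by -0.0040 and 1448738_at by -0.010, both with a turned sign. There 1456934_at differed by -0.095 and 1458836_at by 0.11. The array-to-array variation of Calb1 was thus shared by its probe sets, and the genotype difference was smaller than that variation at each of them.

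Pvalb encodes parvalbumin, which in the kidney marks the early distal convoluted tubule and is otherwise abundant in fast muscle and in a class of inhibitory neurons. Its probe set 1417653_at read 10.60, 9.30 and 9.41 in ICD and 10.50, 10.60 and 10.21 in wild type kidneys. ICD 2 and ICD 3 lay below all wild type arrays, and ICD 1 was level with the highest wild type array. The means were 9.77 ± 0.72 (SD, n = 3) and 10.44 ± 0.20, which gives -0.67 ± 0.30 (SE), a factor of 0.629, with an interval of -1.36 to 0.029 and a limma adjusted p of 0.865. Without ICD 1, the ICD array that read as high as the wild type arrays, the difference was -1.08. Without ICD 2 it was -0.43 and without ICD 3 it was -0.49. The larger size without ICD 1 follows from dropping the array that read unlike ICD 2 and ICD 3. Pvalb did not pass limma over all probe sets with any of these arrays left out. Leaving out the array labelled wild type 3 gave -0.78. The spread of Pvalb within the groups was larger than that of 99.3% of probe sets that were not dim.

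The values of other markers were read beside Pvalb. Of 8 fixed markers of skeletal muscle all were measured, with a mean log2 value of 5.95 to 5.99 in ICD and 5.94 to 6.10 in wild type kidneys. Tnni2, a fast troponin, was the only one with an unadjusted limma p under 0.05 and differed by -0.23 (limma adjusted p = 0.84), and by -0.14 with wild type 3 left out. The mean deviation of these markers was 0.0070, -0.037 and -0.016 on ICD 1, 2 and 3 and -0.015, -0.048 and 0.11 on wild type 1, 2 and 3. The 2 low Pvalb arrays thus lay within the range of the other arrays in muscle markers. The mean level of these markers was below 6.64 on every array, where RMA compresses differences, so a difference in them could be understated. Among the 6 distal convoluted tubule markers outside the member set, the mean deviation was 0.014, 0.026 and -0.14 on ICD 1, 2 and 3 and -0.019, 0.077 and 0.039 on wild type 1, 2 and 3. Of the 2 low Pvalb arrays, ICD 3 was thus the lowest of all 6 in these markers, while ICD 2 lay within the range of the others. The part of these markers in the Pvalb values was not tested.

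S100g encodes calbindin-D9k, the smaller calcium shuttle, a classical target of vitamin D in the intestine. It read 13.04, 12.97 and 13.04 in ICD and 12.60, 12.91 and 13.17 in wild type kidneys. The ICD arrays lay close together, within the wider wild type range. The difference was 0.12 (interval -0.17 to 0.42, limma adjusted p = 0.97), with SDs of 0.040 and 0.29. Leaving out the array labelled wild type 3 gave 0.26 (limma adjusted p = 0.891), and leaving out wild type 1 gave -0.021, so the value turned on single wild type arrays.

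Slc8a1 encodes the sodium/calcium exchanger NCX1, which moves calcium out through the basolateral membrane and is also abundant in heart and smooth muscle. Its brightest probe set 1440201_at read 10.61, 10.55 and 10.54 in ICD and 10.56, 10.54 and 10.32 in wild type kidneys. The array labelled wild type 3 was low and the other 5 lay within a narrow band. The difference was 0.093 (interval -0.095 to 0.28), and 0.016 without that array. At 1437675_at the values were 9.72, 9.77 and 9.47 in ICD and 9.60, 9.26 and 9.24 in wild type kidneys, where wild type 1 lay above ICD 3. This probe set differed by 0.29 ± 0.12 (SE), with an unadjusted limma p of 0.0407 and an adjusted p of 0.84. Without the array labelled wild type 3 it differed by 0.22. The dim probe sets 1425817_a_at and 1420210_at differed by 0.17 and -0.050; the first was 0.045 when wild type 3 was left out, and the second 0.076 when ICD 2 was. The mean log2 value of 6 smooth muscle markers was 7.87 to 8.01 in ICD and 7.83 to 8.04 in wild type kidneys, with no marker at an unadjusted limma p under 0.05.

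Klk1 encodes tissue kallikrein, a serine protease that connecting tubule cells release into the urine and that acts on kininogen and on transporters and channels of the distal nephron. It had 4 probe sets, of which 3 carry the suffix of probes shared with other sequences, and the kallikrein genes of the mouse are near-identical copies, so those 3 are uncertain. The unsuffixed 1415837_at read 14.40, 14.50 and 14.35 in ICD and 14.35, 14.38 and 14.27 in wild type kidneys. ICD 1 and ICD 2 were the highest arrays and ICD 3 lay among the wild type arrays. The difference was 0.083 (interval -0.080 to 0.25, limma adjusted p = 0.957). The brightest, 1448107_x_at, ordered the arrays in nearly the same way and differed by 0.069 (interval -0.078 to 0.22). The remaining 2 differed by 0.011 and -0.042. The intervals of Klk1 were among the narrowest in the set, and a factor above 1.19 or below 0.867 lay outside the interval at each of its probe sets.

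**Figure D3:**
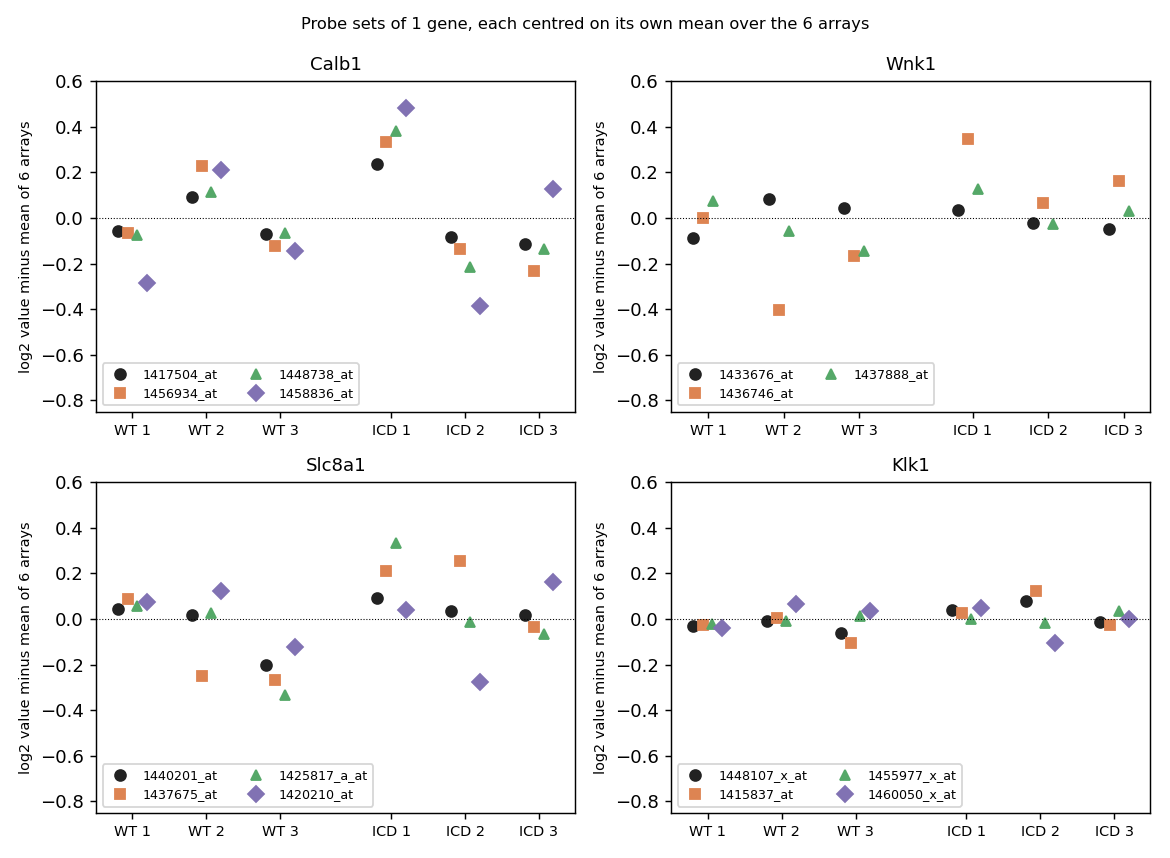
For Calb1, Wnk1, Slc8a1 and Klk1 the log2 value of each probe set minus its own mean over the 6 arrays (vertical axis) is plotted by array, with a colour and symbol per probe set. The 4 Calb1 probe sets are all highest on ICD 1, the Wnk1 probe sets part from each other on wild type 2, and the Klk1 probe sets stay close to 0 on every array.

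Related genes were read from 5 lists by function, using the brightest probe set of each gene. No gene of any list passed the test over all probe sets, and 1 of 52 measured genes had an unadjusted limma p under 0.05, against the 5.86% of all probe sets given above. Of the 52 genes, 17 were higher and 35 lower in ICD kidneys (median -0.028), beside the 43.9% higher over all genes.

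Of the genes that control the cotransporter, 15 of 16 were measured, 2 higher and 13 lower, with a median of -0.057 (-0.064 without the array labelled wild type 3). The lowest was the dim Wnk3, another kinase of the family, at -0.20 (limma adjusted p = 0.927, and -0.11 with wild type 3 left out). The highest was Oxsr1, which encodes OSR1, at 0.043 (limma adjusted p = 0.982). Stk39, which encodes SPAK, differed by -0.16 at its brightest probe set (limma adjusted p = 0.882, and -0.12 with wild type 3 left out). Its other probe sets differed by -0.13 and, at a dim one, -0.046. The mean deviation of this list was -0.050 to -0.028 on the ICD arrays and -0.031, 0.068 and 0.076 on wild type 1, 2 and 3, so wild type 1 lay among the ICD arrays.

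Of the calcium entry and exit genes, 12 of 15 were measured, 5 higher and 7 lower, with a median of -0.0048 (0.011 with wild type 3 left out). The dim Calb2, which encodes calretinin, was highest at 0.11 (limma adjusted p = 0.958; 0.074 with wild type 3 left out), and Casr, the calcium-sensing receptor, lowest at -0.14 (limma adjusted p = 0.927). Atp2b1, the calcium pump that shares the exit step with the exchanger, differed by 0.070 at its brightest probe set. A further Atp2b1 probe set, 1428936_at, singled out after its values were seen, read 9.36, 9.21 and 9.16 in ICD and 9.04, 8.87 and 8.95 in wild type kidneys. Each ICD value there was above each wild type value, and the difference of 0.29 had a limma adjusted p of 0.714, while 1452969_at of the same gene differed by -0.029. Of the magnesium genes 12 of 13 were measured, 5 higher and 7 lower, with a median of -0.016. They ran from -0.12 for Cldn19, a claudin of the thick ascending limb needed to reclaim magnesium, to 0.077 for Trpm7, the channel-kinase most like TRPM6. Of the kallikrein and kinin genes 8 of 14 were measured, 2 higher and 6 lower (median -0.035), from -0.21 for the dim Klk1b27 (-0.14 with wild type 3 left out) to 0.090 for Kng1, a kininogen.

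Of the basolateral genes of the distal tubule 5 of 8 were measured, 3 higher and 2 lower, with a median of 0.020 (0.0076 with wild type 3 left out). Kcnj10, the potassium channel Kir4.1 that sets the membrane potential of distal convoluted tubule cells and through it the activity of the WNK cascade, stood lowest. It read 8.85, 8.89 and 8.82 in ICD and 9.31, 9.22 and 9.35 in wild type kidneys, so that every ICD array lay below every wild type array. The difference was -0.44 ± 0.067 (SE), a factor of 0.737, with an interval of -0.59 to -0.29 and an unadjusted limma p of 0.000149. It did not pass over all probe sets (limma adjusted p = 0.337), and it lay between -0.47 and -0.41 when any 1 array was left out. Its partner channel subunit Kcnj16, which encodes Kir5.1, differed by 0.078 and 0.039 at its probe sets.

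**Figure D4:**
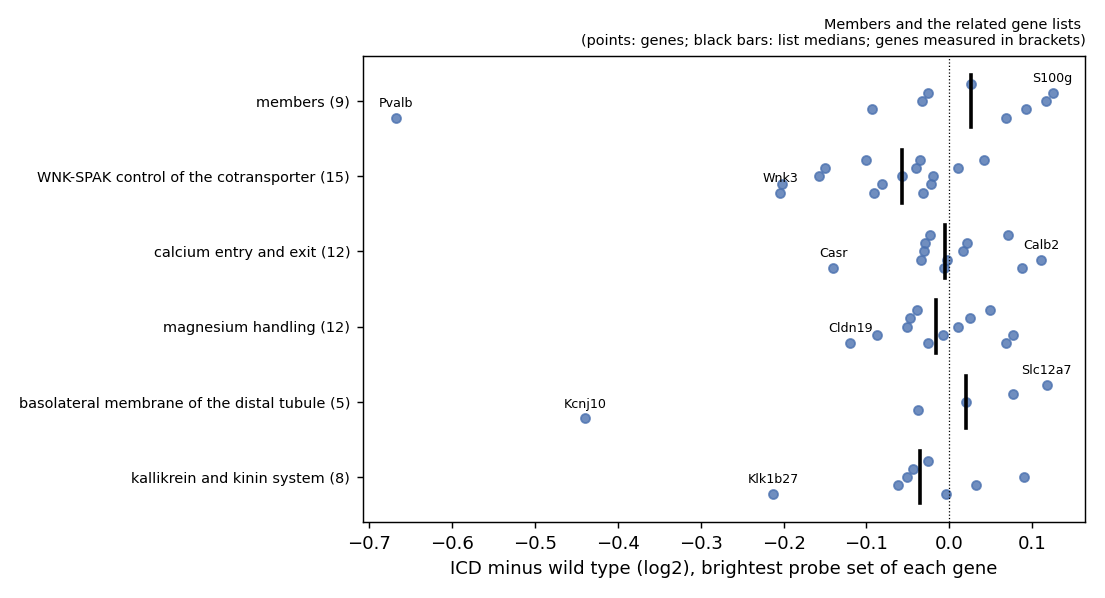
Each point is the ICD minus wild type difference (log2, horizontal axis) of 1 gene at its brightest probe set, for the 9 measured members and the 5 related lists, with black bars at the list medians. Apart from Pvalb at -0.67 and Kcnj10 at -0.44, the genes lie between -0.21 and 0.12.

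Neighbouring segments gave the following values beside these. Over all genes 43.9% were higher in ICD kidneys, as given above. Of 10 thick ascending limb markers 9 were lower in ICD kidneys (median -0.089), with Ptger3, a prostaglandin receptor, at -0.35 (limma adjusted p = 0.6). With wild type 3 left out 3 of the 10 were higher (median -0.077), and Ptger3 differed by -0.29. Of 12 principal cell markers 10 were lower (median -0.074, and -0.038 with wild type 3 left out), with Scnn1a, a sodium channel subunit, at -0.21, Avpr2, the vasopressin receptor, at -0.23 and Elf5, a transcription factor, at -0.28 (limma adjusted p = 0.734, 0.714 and 0.818). Of the 5 connecting tubule markers that are not members 2 were higher (median -0.023, and 0.024 with wild type 3 left out), and of the 6 distal convoluted tubule markers that are not members 3 were higher (median -0.011, and 0.0045 with wild type 3 left out). With the members counted, 6 of 9 connecting tubule markers were higher (median 0.069, and 0.024 with wild type 3 left out) and 4 of 11 distal convoluted tubule markers (median -0.032, and -0.0097). Intercalated cell markers were higher for 5 of 10, from -0.20 for Slc4a1, the anion exchanger (-0.12 with wild type 3 left out), to 0.30 for Hmx2, a homeobox factor. No marker gene of any list passed limma over all probe sets.

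Markers of other cells gave these values. The 7 podocyte markers with a probe set lay higher in the ICD group (median 0.40), 6 of them at an unadjusted limma p under 0.05 and a limma adjusted p of 0.642 to 0.725: Cdkn1c, a cell cycle inhibitor, at 0.55, Wt1, a transcription factor, at 0.52, Ptpro, a phosphatase, at 0.51, Podxl, a surface sialoprotein, at 0.40, Synpo, an actin-binding protein, at 0.35 and Nphs1, the slit diaphragm protein nephrin, at 0.24. All 10 endothelial markers were higher (median 0.092). Of 12 proximal tubule markers 10 were higher (median 0.14), and the differences ran from -0.014 to 1.58. Only Slc6a19, an amino acid transporter, had an unadjusted limma p under 0.05 among these proximal markers, at 0.81 (limma adjusted p = 0.809). With the array labelled wild type 3 left out the podocyte, endothelial and proximal tubule medians were 0.31, -0.069 and 0.0084. In that setting 7 of 7, 3 of 10 and 7 of 12 markers were higher. The 6 named podocyte genes then differed by 0.25 (Synpo) to 0.69 (Cdkn1c), and Slc6a19 by 0.38. The part of these shifts in the member values was not tested.

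For 3 members the genes with the most similar profile over the 6 arrays were sought among 19651 to 19654 named probe sets that were not dim. Closest to Slc12a3 were Fads6 (Pearson r = 0.993), Fibp (0.992) and Luc7l2 (0.991), and closest to Calb1 were Depdc5 (0.993), Rccd1 (0.987) and Elovl6 (0.982). Closest to Klk1 were Pum2 (0.997), Rbak (0.995) and Sgk3 (0.991). The Klk1 profile used was that of its brightest probe set, 1448107_x_at, 1 of the 3 called uncertain above. Spearman's rho of these 9 pairs lay between 0.829 and 1. No other member appeared among them, but only the 3 closest genes of each were listed, so nothing is concluded from that. With 6 arrays and so many candidates, values of this size describe the ranking only, and no p is given.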

How the data were processed

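RNA from 6 kidneys was hybridised to 1 Affymetrix array each. The deposited values are log2 intensities (3.11 to 15.11). RMA is named in the submitters' processing notes; its version and chip definition are not given in the sources used here. RMA forces all arrays to 1 distribution and compresses differences of dim probe sets, so a shift shared by most transcripts would be removed. Scanner files were not used here. The 64 control rows were left out, and 45037 probe sets were tested in R 4.3.3 with limma 3.58.1 (functions lmFit and eBayes, genotype only, 2-sided, Benjamini-Hochberg over all probe sets, threshold 0.05). The number of arrays limits the precision: the half-width of a 95% interval was 0.14 to 0.70 over the member probe sets, with a median of 0.19 over all probe sets. The replicates are separate animals per the labels. An exact permutation test of 3 against 3 cannot reach a 2-sided p below 0.1, so none was run.

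Platform annotation gave 1 symbol for 34945 probe sets, several for 932 and none for 9160; 34741 were found by Entrez identifier in RefSeq's GRCm38.p6 table and 0 symbols changed. Every member probe set was named. From the related and marker lists, genes with an unadjusted limma p under 0.05 were named, otherwise the highest and the lowest. Atp2b1, Kcnj16, Stk39 and Lrp2 were named outside this rule. Endothelial, smooth muscle and non-member connecting tubule markers were given only as lists. Members and lists were chosen with earlier results of these data known. The fit was tested on simulated data. Alternatives were leaving out each array, a replicate block, a trended and robust prior, quantile normalization, subtracted array medians, bright probe sets only, array weights and averaging a gene's probe sets. Same-numbered arrays of the genotypes did not deviate together (correlations -0.0057, 0.0077 and -0.047), so the numbers were not taken as pairs.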

Additional observations from a re-analysis of the deposited data

How the results depend on the processing

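The count of member probe sets past limma's threshold was 0 under every alternative that tested probe sets (averaging a gene's probe sets gave only the members' median), with 1 to 4 at an unadjusted limma p under 0.05 and a smallest adjusted p of 0.291 (Pvalb without ICD 1). Over all probe sets limma called 1 with a trended and robust prior, and 0 to 1 when 1 array was left out. With the replicate block limma called 0 of all probe sets and 0 members, with 4 members at an unadjusted p under 0.05; the block changed no call. The members' median lay between -0.050 and 0.089 when 1 array was left out and between 0.019 and 0.055 under the other alternatives. Of 260 single values of members under alternatives, 238 kept their direction and 22 turned sign, 19 of these when 1 array was left out. The 12 probe sets with a turned sign all had differences of at most 0.15 in size. Quantile normalization turned Klk1 1455977_x_at to -0.0065, and array weights turned Trpm6 1438877_at to 0.0032 and Calb1 1456934_at to 0.013. Leaving out 1 array gave ranges of -0.085 to 0.089, -0.20 to 0.083, -0.17 to 0.13 and -0.059 to 0.38 for Calb1 1417504_at, 1456934_at, 1448738_at and 1458836_at, of -0.14 to 0.035 and -0.0090 to 0.17 for Trpm6 1438877_at and 1427642_at, of -0.0029 to 0.022 and -0.075 to 0.0011 for Klk1 1455977_x_at and 1460050_x_at, of -0.021 to 0.26 for S100g, of -0.14 to 0.076 for Slc8a1 1420210_at, of -0.076 to 0.0088 for Wnk1 1433676_at and of -0.19 to 0.012 for Wnk4. The cause was not tested. Pvalb, both Slc12a3 probe sets, the other Wnk1 and Slc8a1 probe sets, the 2 brightest of Klk1 and Kcnj10 kept their direction throughout, Pvalb between -1.08 and -0.43. Dim probe sets lie near the background of the array, where RMA compresses differences.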
